A study of Mus musculus with 2 samples.

Results

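The genes described here encode microtubule-associated proteins (MAPs) and stathmins, 10 genes chosen by symbol: *Dcx*, *Dclk1*, *Pafah1b1*, *Map1b*, *Map2*, *Mapt*, *Stmn1*, *Stmn2*, *Stmn3* and *Stmn4*. All 10 were found among the 24411 genes of the deposited count tables. RNA was taken from fresh-frozen mouse brain at embryonic day 16.5 by laser capture microdissection, which cuts chosen areas out of a stained section, and was sequenced in bulk as 1 library from the subventricular zone (SVZ) and 1 from the cortex. The embryos came from timed matings, and no treatment or genetic change is named for either area. The sections lay next to those on which the study tried a light-directed barcoding method, and these libraries were its benchmark. The barcoded data are not analysed here. The sources used here do not give the strain, the sex, the number of embryos, or whether both areas came from the same animal. The reads assigned to genes numbered 51435667 for SVZ and 22050693 for cortex. With 1 library per area there is no replicate check of any difference, and no test was made between the areas. Below, SVZ and cortex stand for these single libraries. Levels are CPM, the reads of a gene scaled to a common total of gene-assigned reads, ratios are SVZ over cortex on the log2 scale, and the intervals are exact 95% (Clopper-Pearson) intervals that cover counting error only.

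Microtubules are polymers of tubulin that a newborn neuron uses first to pull its nucleus through the cortical wall and then to extend an axon and dendrites. MAPs bind the polymer and stabilise, bundle or space it, whereas stathmins bind free tubulin dimers and destabilise the polymer. Loss of LIS1 (the product of *Pafah1b1*) or doublecortin is a known cause of lissencephaly, a failure of cortical neurons to migrate. The SVZ holds dividing progenitors and young neurons, and the cortex holds neurons that have arrived or are arriving.

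All 10 genes had the higher CPM in cortex, as had 44.8% of the 9027 genes that averaged 10 CPM or more over both libraries. The 2-fold mark was passed on the cortex side by 6 of them (*Map1b*, *Map2*, *Mapt*, *Stmn2*, *Stmn3* and *Stmn4*), against 12.3% of the 9027 genes, and on the SVZ side by 0, against 14.9%. At least 4-fold higher in cortex were 4 (*Map1b*, *Mapt*, *Stmn2* and *Stmn4*), against 4.70%. The other 4, *Dcx*, *Dclk1*, *Pafah1b1* and *Stmn1*, were between 1.36-fold and 1.81-fold higher in cortex. The median log2 ratio of the 10 was -1.60, with a range of -3.34 to -0.44, beside a median of 0.10 and quartiles of -0.46 and 0.61 over all 9027 genes. Together the 10 genes took 0.761% of the gene-assigned reads of SVZ and 2.80% of those of cortex. *Map1b* alone made up much of this, and without it the shares were 0.474% and 1.12%.

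**Figure D1:**
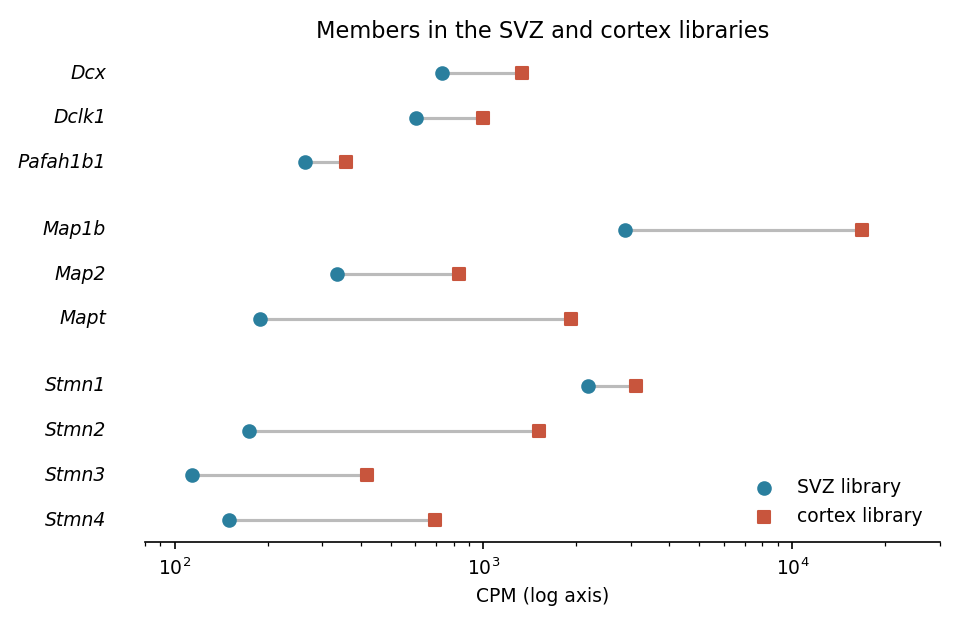
Level of each gene in SVZ (circles) and cortex (squares), in CPM on a log axis, grouped from top to bottom as lissencephaly and doublecortin genes, structural MAPs and stathmins. Each point is 1 library and has no replicate. The square lies to the right of the circle for all 10 genes, and the gap is widest for *Mapt*, from 189 to 1919 CPM.

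The areas were checked by marker genes. Calls were counted for those that averaged 1 CPM or more. At that minimum 20.0% of all genes were at least 2-fold higher in SVZ and 15.6% in cortex. By direction alone, 6990 of these 12738 genes were higher in SVZ and 5748 in cortex. Summed levels cover every gene of a list, also those below the minimum. All 9 progenitor markers were over 4-fold higher in SVZ, with a summed level of 7274 CPM against 127 CPM in cortex, led by *Fabp7* and *Slc1a3*. The 9 neuron markers were higher in cortex, 6 of them at least 2-fold, but their summed level in SVZ was still 2996 CPM beside 8406 CPM in cortex, with *Neurod6* and *Tubb3* the most counted over both libraries together. The SVZ library thus held transcripts of neuron markers in quantity. They ranged there from 16.5 CPM for *Syt1* to 1592 CPM for *Neurod6*, which gave much of the sum. Interneuron markers summed to 106 CPM in SVZ and 85.3 CPM in cortex, with 1 of 5 at least 2-fold higher in SVZ. Blood vessel markers summed to 134 and 101 CPM, with 1 of 6 at least 2-fold higher in cortex. Microglia markers summed to 50.3 and 5.53 CPM, with 6 of 6 at least 2-fold higher in SVZ. The other lists had 2 or 3 genes of at least 1 CPM. Choroid plexus markers summed to 245 CPM in SVZ, nearly all from *Ttr*, and to 0.726 CPM in cortex, where *Folr1* and *Clic6* had 0 reads. Erythroid markers summed to 20.1 and 10.6 CPM with all 4 globin genes at 0 in both, meningeal markers to 3.66 and 5.71 CPM, and markers of the oligodendrocyte lineage to 11.1 and 16.7 CPM. In bulk tissue, fewer cells of a type and less RNA per cell cannot be told apart. The part of cell make-up in the values of the 10 genes was not tested.

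The start regions of the genes were read from RefSeq (GRCm38.p6) as the 250 bases before each annotated start. Entries were found for 6 of the 10 genes, with 8 starts, and not for *Mapt*, *Stmn1*, *Stmn2* and *Stmn4*. For *Map1b*, *Stmn3* and both starts of *Dclk1* the window holds no exon of the gene itself in GENCODE M21. Shown are *Map1b*, *Stmn3* and the first start of *Dclk1*, as 1 gene from each role among genes that all had the higher level in cortex. Each runs 5′ to 3′ on the strand of the gene, at chr13:99516603-99516852 on the minus strand for *Map1b*, chr2:181314501-181314750 on the minus strand for *Stmn3* and chr3:55242114-55242363 on the plus strand for *Dclk1*. Capitals mark the motifs searched on both strands, which were the E-box CAGATG bound by neurogenic bHLH factors, the TATA box TATAAA, the CCAAT box and the GC box GGGCGG. No matches overlap in the sequences shown.

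*Map1b*: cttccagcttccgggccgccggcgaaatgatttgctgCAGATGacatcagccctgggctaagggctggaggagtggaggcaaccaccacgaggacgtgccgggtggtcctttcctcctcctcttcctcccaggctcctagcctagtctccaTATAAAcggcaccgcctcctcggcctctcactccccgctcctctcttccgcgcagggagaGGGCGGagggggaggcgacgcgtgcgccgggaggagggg

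*Stmn3*: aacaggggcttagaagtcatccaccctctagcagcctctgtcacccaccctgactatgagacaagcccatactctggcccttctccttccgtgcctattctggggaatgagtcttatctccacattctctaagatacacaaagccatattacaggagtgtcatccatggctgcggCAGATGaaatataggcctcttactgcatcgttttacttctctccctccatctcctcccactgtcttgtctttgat

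*Dclk1*: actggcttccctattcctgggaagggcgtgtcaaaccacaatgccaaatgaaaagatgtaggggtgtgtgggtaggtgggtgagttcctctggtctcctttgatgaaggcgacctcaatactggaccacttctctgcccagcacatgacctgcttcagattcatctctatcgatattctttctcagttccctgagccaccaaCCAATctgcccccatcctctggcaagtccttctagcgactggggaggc

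No motif of the 4 was in more than 3 of the 8 start regions. CAGATG was in those of *Map1b* and *Stmn3*, 2 of 8 starts, and in 14.4% of all 32851 start regions of the same length. TATAAA was in 3 of 8 (*Map1b* and both starts of *Dcx*, whose windows overlap and hold the same match), against 12.4% of all. The CCAAT box was in 2 of 8 (*Dclk1* and *Dcx*), against 33.8%, and GGGCGG in 2 of 8 (*Map1b* and *Map2*), against 32.7%. Base composition ranged from 41.6% G and C at a *Dcx* start to 81.2% at *Map2*, around a median of 52.4% over all start regions. *Map1b* had 19 CpG dinucleotides in its window, *Pafah1b1* 22 and *Map2* 34, where *Stmn3* and *Dcx* had 3 and *Dclk1* 4, beside a median of 6. A match in these letters is a description and not a bound site. Of the 250 bases in the window of *Map1b*, 224 are exon sequence of *Gm26559*, a noncoding gene on the other strand.

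The first of the role groups acts in neuronal migration. *Dcx* encodes doublecortin, a MAP of migrating and newly settled neurons, *Dclk1* encodes a protein with the same microtubule-binding domains joined to a kinase, and *Pafah1b1* encodes LIS1, which regulates the motor dynein. *Dcx* (GRCm38 chromosome X, 143855842 to 143933311) had 37721 reads or 733 CPM in SVZ and 29328 reads or 1330.0 CPM in cortex. Its log2 ratio was -0.86 (interval -0.88 to -0.84). *Dclk1* (chromosome 3, 55242364 to 55539068) had 31203 reads or 607 CPM and 21997 reads or 998 CPM, a log2 ratio of -0.72 (-0.74 to -0.69). Both genes were therefore well represented in the germinal area and less than 2-fold higher in the cortex. *Pafah1b1* (chromosome 11, 74673949 to 74724670) had 13624 reads or 265 CPM and 7919 reads or 359 CPM. Its log2 ratio of -0.44 (-0.48 to -0.40) was the smallest difference among the 10 genes, at percentile 25.8 of the ratios of all genes.

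Within this group the proportions were much alike in the libraries. *Dcx* made up 54.7% of the reads of the pair *Dcx* and *Dclk1* in SVZ (interval 54.4% to 55.1%) and 57.1% in cortex (56.7% to 57.6%). The ratio of *Dcx* to *Dclk1* reads was thus 1.10-fold higher in cortex, beyond counting error but small. The ratio of *Dcx* to *Pafah1b1* reads was 2.77 and 3.70, 1.34-fold higher in cortex. A gene count does not separate the transcripts that keep the doublecortin domains of *Dclk1* from the short ones that hold the kinase alone.

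The structural MAPs differed more. *Map1b* encodes MAP1B, the MAP that appears earliest in growing axons, *Map2* encodes the MAP that marks the cell body and dendrites, and *Mapt* encodes tau, the axonal MAP. *Map1b* (chromosome 13, 99421446 to 99516540) had 147906 reads or 2876 CPM in SVZ, where it was number 16 by CPM, and 371474 reads or 16846 CPM in cortex, where it was number 1. Its log2 ratio was -2.55 (-2.56 to -2.54), a level 5.86-fold higher in cortex. *Map2* (chromosome 1, 66175273 to 66442583) had 17248 reads or 335 CPM and 18353 reads or 832 CPM, a log2 ratio of -1.31 (-1.34 to -1.28). *Mapt* (chromosome 11, 104231390 to 104332090) had 9739 reads or 189 CPM and 42316 reads or 1919 CPM. Its log2 ratio of -3.34 (-3.37 to -3.31), or 10.1-fold, was the largest difference among the 10 genes, at percentile 1.75 of the ratios of all genes.

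The dendritic and the axonal MAP therefore stood in different proportion. In SVZ there were 0.565 *Mapt* reads for each *Map2* read, and in cortex 2.31, a ratio 4.08-fold higher (3.96 to 4.21, a Wald interval of the read counts). This proportion is taken within each library and does not depend on how the libraries are scaled to each other. Of the reads of the 3 structural MAPs, *Map2* gave 9.86% in SVZ and 4.25% in cortex, *Mapt* 5.57% and 9.79%, and *Map1b* 84.6% and 86.0%. Splice forms such as juvenile and adult MAP2 or the repeat forms of tau are not resolved by these counts.

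The stathmins were split. *Stmn1* encodes stathmin itself, a cytosolic protein that is abundant in dividing as well as neural cells. *Stmn2* (SCG10), *Stmn3* (SCLIP) and *Stmn4* (RB3) encode the neuronal stathmins, which carry an extension that attaches them to membranes. *Stmn1* (chromosome 4, 134468320 to 134473843) had 111694 reads or 2172 CPM in SVZ and 68639 reads or 3113 CPM in cortex, so that it was high in both, number 21 and number 17 by CPM. Its log2 ratio was -0.52 (-0.53 to -0.51). *Stmn2* (chromosome 3, 8509360 to 8561606) had 8967 reads or 174 CPM and 33252 reads or 1508 CPM, a log2 ratio of -3.11 (-3.15 to -3.08) or 8.65-fold. *Stmn4* (chromosome 14, 66344296 to 66361680) had 7689 reads or 149 CPM and 15323 reads or 695 CPM, a log2 ratio of -2.22 (-2.26 to -2.18). *Stmn3* (chromosome 2, 181306459 to 181314500) had 5851 reads or 114 CPM and 9248 reads or 419 CPM, a log2 ratio of -1.88 (-1.93 to -1.84). Each of the 3 neuronal stathmins was thus more than 3-fold higher in cortex, and *Stmn1* was 1.43-fold higher.

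The make-up of the stathmin reads differed accordingly. *Stmn1* gave 83.2% of the reads of the 4 stathmins in SVZ (interval 83.0% to 83.4%) and 54.3% in cortex (54.0% to 54.6%). *Stmn2* gave 6.68% and 26.3%, *Stmn4* 5.73% and 12.1%, and *Stmn3* 4.36% and 7.31%. Set against *Stmn1* in the same library, *Stmn2* was 6.03-fold higher in the cortex (Wald interval 5.88 to 6.19), *Stmn4* 3.24-fold (3.15 to 3.34) and *Stmn3* 2.57-fold (2.49 to 2.66). Since longer transcripts give more reads, the shares were also taken per kilobase of annotated exons. *Stmn1* then made up 84.4% in SVZ and 61.8% in cortex, and *Stmn2*, the longest of the 4, 2.32% and 10.3%.

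**Figure D2:**
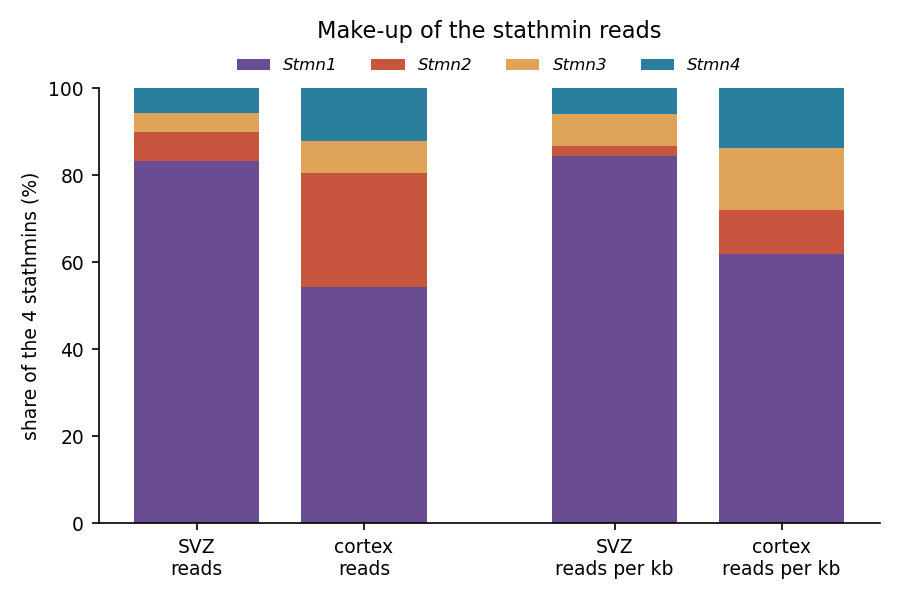
Share of each stathmin in the summed reads of *Stmn1* to *Stmn4* (left pair of bars) and in the summed reads per kilobase of annotated exons (right pair), in percent, for 1 SVZ and 1 cortex library. *Stmn1* takes 83.2% of the reads in the SVZ bar and 54.3% in the cortex bar, and the *Stmn2* part is 6.68% and 26.3%.

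Among all genes the 10 lay on the cortex side at high CPM. The ranks that follow are by CPM with no correction for length, and longer transcripts give more reads. By cortex CPM, 7 of the 10 were among the first 118 of the 9027 genes, and *Stmn4*, *Stmn3* and *Pafah1b1* were at ranks 159, 354 and 438. By SVZ CPM the ranks ran from 16 for *Map1b* and 21 for *Stmn1* to 2181 for *Stmn3*. The neuronal stathmins and *Mapt* were the members whose rank differed most. *Stmn3* was number 2181 in SVZ and 354 in cortex, and *Stmn4* number 1595 and 159. *Stmn2* was number 1295 and 48, and *Mapt* number 1153 and 35.

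**Figure D3:**
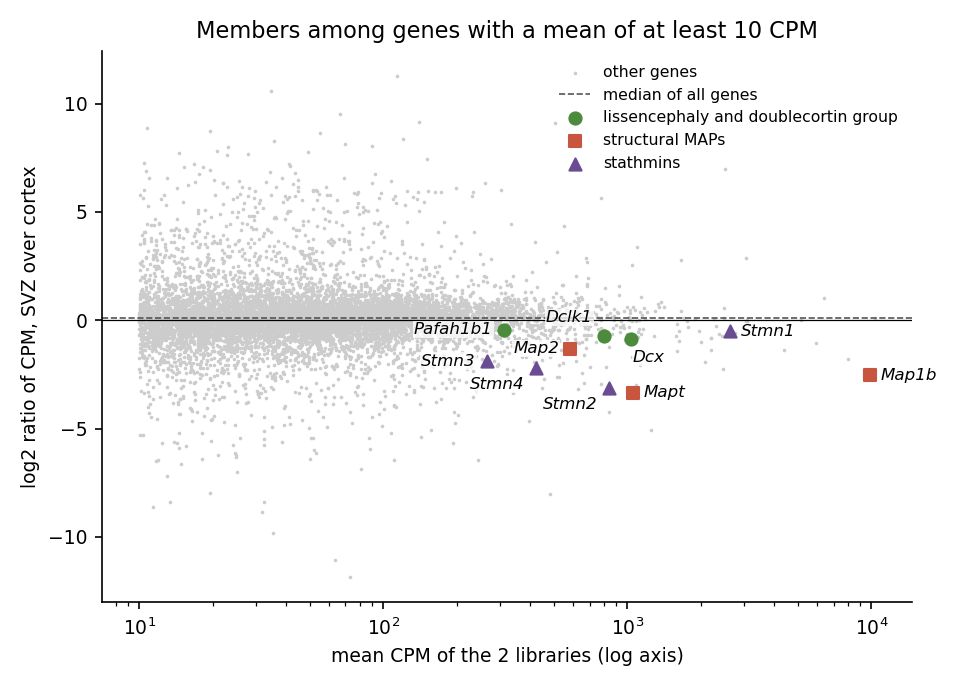
Log2 ratio of CPM, SVZ over cortex, against the mean CPM of the 2 libraries on a log axis for genes that averaged 10 CPM or more. Grey points are other genes, coloured symbols the 10 genes by role, the solid line is a ratio of 1 and the dashed line the median of all genes at 0.10. All 10 symbols lie below the solid line, and 36 genes with no read in 1 library are not drawn.

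Compared with the neuron markers, which had a median log2 ratio of -2.06 and ranged from -3.51 to -0.32, no member lay outside the range. *Mapt* and *Stmn2* differed from the neuron marker median by -1.28 and -1.05 on the log2 scale. *Map1b*, *Stmn4* and *Stmn3* differed from it by -0.49, -0.15 and 0.18. *Map2*, *Dcx*, *Dclk1*, *Stmn1* and *Pafah1b1* were nearer to equality by 0.75 to 1.62. Which cells of each area these reads came from was not tested.

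Levels can be compared between genes only per length. In CPM per kilobase of annotated exons, *Stmn1* was the highest of the 10 in SVZ, at 1130 (interval 1123 to 1136), before *Map1b* at 181. There followed *Stmn3* (100.1), *Stmn4* (78.0), *Dcx* (58.0), *Dclk1* (39.7), *Stmn2* (31.1), *Pafah1b1* (27.5), *Mapt* (25.1) and *Map2* (20.4). In cortex *Stmn1* (1620) was again first and *Map1b* (1063) next, before *Stmn3* (369), *Stmn4* (363), *Stmn2* (269), *Mapt* (255), *Dcx* (105), *Dclk1* (65.2), *Map2* (50.6) and *Pafah1b1* (37.3). *Dcx* thus stood above *Stmn2* and *Mapt* in SVZ and below both in cortex. All neighbours in either order differed beyond counting error, except *Stmn3* and *Stmn4* in cortex. The order depends on the length used. With the longest coding transcript in place of all exons, 2 genes kept their rank in SVZ and 6 in cortex. *Stmn1* and *Map1b* remained first and second in both. In SVZ *Stmn2* (84.1) then came before *Dcx* (80.8), and both were above *Mapt* (36.0). In cortex *Stmn2* (727) and *Mapt* (365) again came before *Dcx* (147).

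Overlap with other genes was small. *Map2*, *Dclk1* and *Stmn1* have exons that overlap those of other genes in GENCODE M21, over 0.754%, 0.745% and 3.43% of their exon length, and the other 7 have none. The sum of the stranded count columns exceeded the unstranded count by at most 46 reads, for *Stmn1* in SVZ. The first stranded column held between 48.6% and 51.0% of the reads of each member, beside 49.6% and 49.7% of all gene-assigned reads, as in libraries that do not keep the strand.

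Other genes that act on microtubules were taken from 6 lists drawn up by function. Of 79 genes, 77 averaged 1 CPM or more, and 23 of these were at least 2-fold higher in cortex, 16 in SVZ and 38 in neither. Over all 12738 genes at that minimum, 15.6% were at least 2-fold higher in cortex and 20.0% in SVZ. The lists went different ways.

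The further structural MAPs had a median log2 ratio of -0.95 over 14 genes, 7 of them at least 2-fold higher in cortex and 1 in SVZ. *Map6*, which stabilises microtubules against cold, had 15.5 CPM in SVZ and 74.6 CPM in cortex, a log2 ratio of -2.26. *Map9* had 43.3 and 192 CPM (-2.15). *Map1lc3b*, better known for autophagy than for microtubules, had 1033 and 1057 CPM (-0.03), and *Map7d2*, a partner of kinesin, 12.8 and 19.5 CPM (-0.62).

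The genes that bind the ends of microtubules had a median of -0.99 over 15 genes, with 7 at least 2-fold higher in cortex and 0 in SVZ, or 10 in cortex and 0 in SVZ by TMM, upper-quartile or DESeq2 scaling. *Mapre2* (EB2, a plus-end binding protein) had 172 and 660 CPM, a log2 ratio of -1.94. *Nin* (ninein, which anchors minus ends at the centrosome) had 9.23 and 305 CPM (-5.05). At the other end *Ckap5*, a microtubule polymerase, had 297 and 205 CPM (0.53), and the plus-end protein *Clasp1* 106 and 118 CPM (-0.15).

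Among the doublecortin-domain and LIS1-dynein partners, 3 of 12 genes were at least 2-fold higher in cortex and 1 in SVZ, with a median of -0.46. The lowest ratio of the 6 lists was here. *Dync1i1*, an intermediate chain of dynein, had 189 reads or 3.67 CPM in SVZ and 21081 reads or 956 CPM in cortex, a log2 ratio of -8.02 (-8.24 to -7.82). *Nde1*, a LIS1 partner needed in dividing progenitors, had 183 and 5.31 CPM (5.11). *Dctn1* (18.7 and 48.4 CPM, -1.37) and *Nudc* (233 and 165 CPM, 0.50) lay between them.

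The kinases that phosphorylate MAPs and stathmins, counted with the activators of CDK5, had a median of -0.63 over 16 genes, with 6 at least 2-fold higher in cortex and 0 in SVZ. *Camk4*, a kinase that acts on stathmin, had 7.04 and 34.7 CPM (-2.30), and *Cdk5r1*, the p35 activator of CDK5, 91.3 and 233 CPM (-1.35). *Mark3* (0.12) and *Ttbk2* (0.25) were near equality.

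The mitotic spindle MAPs stood on the SVZ side. All 12 of them had the higher CPM in SVZ, as had 6990 of the 12738 genes that averaged 1 CPM or more. The mark of 2-fold was passed by 11 of the 12, and their median was 5.45 with *Spag5* at its bound. *Spag5* had 2537 reads in SVZ and 0 in cortex, where a count of 0 allows, one-sided, up to 3 reads (0.136 CPM). Against that limit it was at least 362.5-fold higher in SVZ, and the lower bound of its exact two-sided interval was a log2 ratio of 8.20. *Dlgap5* had 55.4 and 0.272 CPM (7.67, interval 6.55 to 9.12), a ratio that rests on 6 reads in cortex. *Haus1* had 112 and 38.0 CPM (1.56), and *Numa1* 57.3 and 46.4 CPM (0.30). The progenitor markers lay on the same side, with a median of 5.58, and their part in this was not tested. The 8 severing genes were mixed, 5 with the higher CPM in SVZ and 3 in cortex, around a median of 0.52. Over all 12738 genes the split was likewise mixed, 6990 and 5748. At least 2-fold higher in SVZ were 3, and in cortex 0, but under TMM, upper-quartile and DESeq2 scaling 2 and 1. The 3 were *Fignl1* (158.8 and 15.1 CPM, 10.5-fold), *Katnal2*, with a log2 ratio of 1.06 that those scalings put under the mark, and *Fign*, which rests on 2 reads in cortex. *Katna1*, the catalytic subunit of katanin, had a log2 ratio of 0.89 and *Spast* -0.57.

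**Figure D4:**
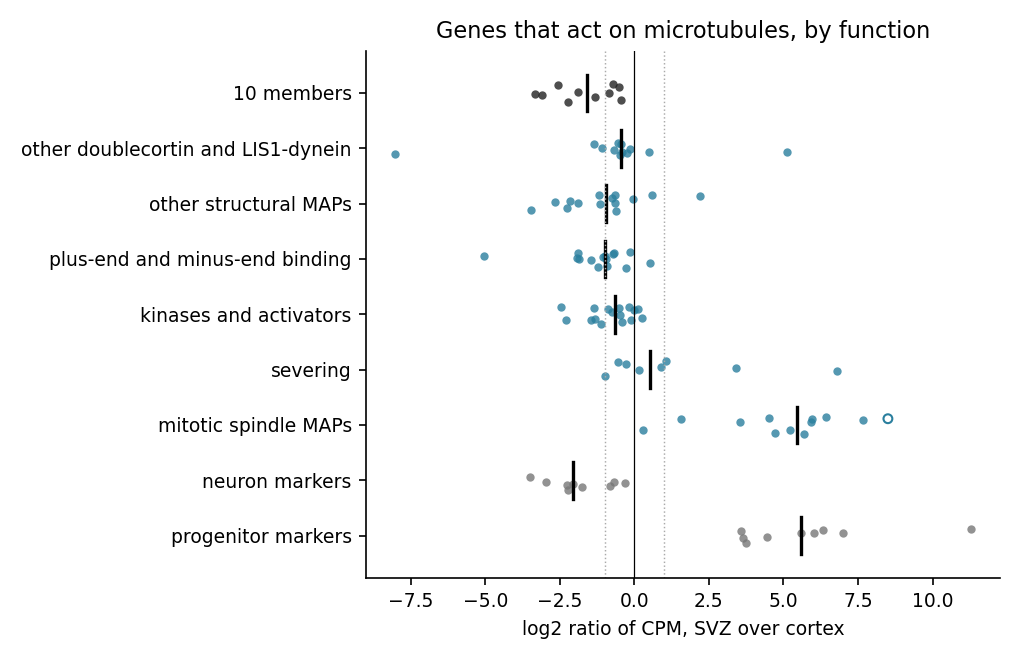
Log2 ratio of CPM, SVZ over cortex, of each gene (points) with a mean of at least 1 CPM in the 10 members, in 6 lists of other genes that act on microtubules, and in the neuron and progenitor markers. Bars are medians, dotted lines mark 2-fold, the solid line a ratio of 1, the vertical scatter within a list has no meaning, and the open circle is *Spag5* at its bound. The members have a median of -1.60 and the mitotic spindle MAPs one of 5.45.

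The genes outside these lists whose ratio was nearest to the median of the 10, among 2353 genes that averaged 100 CPM or more, were *Nsg1* (-1.60), *Dok5* (-1.60) and *Fam49b* (-1.61). The measure is the difference in log2 ratio over 2 libraries, and it says nothing more of these genes.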

How the data were processed

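The authors removed adapters with cutadapt 4.1, mapped read 1 to mm10 (equal to GRCm38) with STAR 2.7.9a, and deposited the counts of reads per gene that STAR gives, not normalized, in 1 unstranded and 2 stranded columns per library. Molecular identifiers are not mentioned, so reads may be PCR copies. Reads that map to several places or lie in more than 1 gene are not in the gene counts. The authors' merged table repeats these counts beside CPM, fold changes and their log10, and was not used.

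Unstranded counts were divided here by the total of gene rows. Unmapped, multimapping, unassigned and ambiguous reads (41.0% and 40.9% of all) were left out. No pseudocount was added. A gene with 0 reads in 1 library was compared at 3 reads, and none is compared where neither count exceeds 3. Ratios of 2 genes within a library have a Wald interval on the log scale. No test was possible with 1 library per area, and genes were called by fold, at a mean of at least 10 CPM (1 CPM for lists).

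The members and lists were chosen with earlier results of these data known. Named from the function lists were the 2 highest and 2 lowest ratios of each that averaged 10 CPM or more. *Katnal2*, *Fign*, *Clic6*, the globin genes and those of the closing observations were named after their values were seen. Positions and lengths came from GENCODE M21, matched by symbol, and may differ from the annotation counted. Alternatives were scaling by edgeR 4.0.16 (TMM, upper quartile) or by the size factors of DESeq2 1.42.0, a total without the 10 top genes, the stranded sum, thinning of the SVZ library, a pseudocount of 1 CPM, and other minimums, folds and lengths. Python 3.11.15, scipy 1.17.1 and R 4.3.3 were used.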

Additional observations from a re-analysis of the deposited data

How the results depend on the processing

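No paired analysis was possible because there is only 1 library from each area, so that no replicate could be left out either. Under the 3 other scalings, a total without the 10 top genes, the stranded sum, thinning and a pseudocount of 1 CPM, all 10 members were higher in cortex and 6 were at least 2-fold higher. At a 4-fold threshold 4 remained, as given above with the 4.70% of all genes. The median log2 ratio of the members was -1.69 under TMM scaling, -1.70 under upper-quartile scaling and -1.69 with DESeq2 size factors, while the median of all genes shifted by -0.093, -0.099 and -0.093. With the stranded sum the members' share of reads was 0.743% in SVZ and 2.74% in cortex. Per kilobase of exons the share of *Stmn1* in the stathmins was 84.4% and 61.8%. Chosen after seeing the data were the shares without *Map1b* (0.474% and 1.12%) and the stathmin shares per kilobase of the longest coding transcript (87.4% and 64.6% for *Stmn1*). Of the severing genes, 1 in place of 0 passed 2-fold on the cortex side under the 3 scalings, the total without the top genes and the stranded sum, and 2 in place of 3 on the SVZ side under the 3 scalings and the pseudocount. Of the genes that bind microtubule ends, 10 in place of 7 passed it in cortex under the 3 scalings, and 8 with the total without the top genes and with thinning. Of the doublecortin-domain and LIS1-dynein genes, 2 in place of 3 did so with thinning and with the pseudocount. Over all genes, 1992 were at least 2-fold higher in cortex and 2547 in SVZ at a minimum of 1 CPM, 249 and 232 at 100 CPM, and 2882 and 3646 with no filter, in place of 1113 and 1341, since each tests another number of genes. At the main minimum the order of these counts turned with the scaling, to 1238 in cortex and 1206 in SVZ under TMM, 1254 and 1194 under upper-quartile scaling, and 1241 and 1205 with DESeq2 size factors.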

Other observations

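Several close relatives within these lists differed in ratio. They were picked after their values were seen and are given as values with no explanation. *Nde1* and *Ndel1*, paralogues that bind LIS1, had log2 ratios of 5.11 (interval 4.84 to 5.38) and -0.54 (-0.64 to -0.45), SVZ over cortex, with 9411 and 2292 reads in SVZ and 117 and 1433 in cortex. *Dync1i1* and *Dync1i2*, the intermediate chains of dynein, had 189 and 19579 reads in SVZ and 21081 and 9906 in cortex, log2 ratios of -8.02 (-8.24 to -7.82) and -0.24 (-0.27 to -0.20). *Dync1i1* therefore had more reads than *Dync1i2* in cortex and fewer in SVZ. Of the plus-end proteins, *Mapre1* (EB1) had a log2 ratio of -0.30, *Mapre3* (EB3) -1.45 and *Mapre2* -1.94. Of the JNK kinases, *Mapk8* had -1.32, *Mapk9* -1.14 and *Mapk10* -0.76. The catalytic subunits that pair with LIS1 in platelet-activating factor acetylhydrolase, *Pafah1b2* and *Pafah1b3*, had -0.13 and -0.49, beside -0.44 for *Pafah1b1*.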
